A study of Mus musculus with 4 samples.

Results

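The transcripts described here are those of the matrix proteases and their inhibitors in 4 RNA sequencing libraries of mouse satellite cells, which are the resident stem cells of muscle. Members were taken by symbol alone: every gene of the table named Mmp, Timp, Adamts or Adamtsl followed by a number, 51 of 21264 genes. They comprise 23 matrix metalloproteinases (MMP), 4 tissue inhibitors of metalloproteinases (TIMP), 19 proteases of the ADAMTS family and 5 ADAMTSL proteins. All 4 libraries belong to 1 group, donor-derived satellite cells re-isolated after transplantation. The donor cells were iPax3 cells, myogenic progenitors derived from pluripotent stem cells, and they overexpressed NICD3, the active fragment that is cut from the Notch3 receptor. The study asked what Notch3 gain of function changes in such cells, but all 4 libraries carry NICD3, cells without it are not analysed here, and no effect of NICD3 can be read from these values. The labels give neither the strain nor the age of the recipients and do not tie replicates to animals, so each SD measures the spread between these libraries, which may be technical.

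Matrix metalloproteinases and ADAMTS proteases are zinc enzymes that cut collagens, proteoglycans and other proteins outside the cell. Most are made as inactive precursors, and TIMPs block the active enzymes by binding their catalytic site. ADAMTSL proteins share the non-catalytic modules of ADAMTS proteases but have no protease domain. In skeletal muscle, a satellite cell lies between the fibre and its basal lamina, and matrix proteases are known for remodelling that niche when muscle is repaired.

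Depth was 12544138 to 13302916 reads per library. The labelled cell type was checked against 8 satellite cell markers, among them Pax7 and Cdh15, and all 8 had at least 1 CPM (counts per total of 1000000 reads) in every library, with a summed level of 2492 to 3830 CPM. Transcripts used as markers of other cells were present too. The 9 fibro-adipogenic markers summed to 6151 to 9032 CPM, more than the satellite cell markers, with Col3a1 at 4599, Gsn at 1246 and Dpt at 1118 CPM on average and Pdgfra at 0.768 CPM. The 8 mural markers summed to 1559, 559, 819 and 878 CPM in replicates 1 to 4, and the glial markers to 363 to 555 CPM. All 6 neutrophil markers together had 0.957 to 3.44 CPM, with S100a9 and Camp at 0. The 9 macrophage markers together had 27.2 CPM in replicate 1 and 72.4 to 171 CPM in the others. Endothelial markers (8 genes) ran from 124 to 364 CPM, highest in replicate 1, where Eng alone had 204 CPM. Pecam1, Cldn5, Cdh5 and Emcn were highest there too, but Kdr, Flt1 and Tek were highest in replicate 2. Tendon markers (7 genes) had 261 CPM in replicate 3 against 11.1 to 30.4 CPM in the others. In bulk RNA, fewer cells of a type and less RNA per cell cannot be told apart.

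Most of the inhibitors and many of the proteases were transcribed, and most secreted MMP genes were not. In all 4 libraries 29 of the 51 members had at least 1 CPM (56.9%), against 53.6% of all genes of the table. By family these were 4 of 4 TIMP, 15 of 19 ADAMTS, 4 of 5 ADAMTSL and 6 of 23 MMP genes. A mean of 10 CPM or more was reached by 23 members (45.1%, against 43.3% of all genes), and 10 members (19.6%, against 22.6%) had no read in any library. Closest to that limit of 10 CPM were Mmp15 above it, at 10.9 CPM, and Adamts20 below it, at 8.93 CPM.

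Summed over each family, TIMP reads were the largest share in 3 libraries and ADAMTS reads in the other. The TIMP genes took 0.142% of all reads in replicate 1 (95% Wilson interval 0.140 to 0.144), 0.247% in replicate 2 (0.245 to 0.2502), 0.209% in replicate 3 (0.206 to 0.211) and 0.284% in replicate 4 (0.281 to 0.287). The ADAMTS genes took 0.233% (0.231 to 0.236), 0.169% (0.167 to 0.171), 0.143% (0.141 to 0.145) and 0.131% (0.129 to 0.133). Replicate 1 was thus lowest for the inhibitors and highest for ADAMTS, and only there did ADAMTS reads outnumber TIMP reads. The shares were not corrected for GC content, which the differences between libraries followed, as given below. The GC content was 46.8% for Timp3 and 55.2% for Adamts4. MMP genes took 0.0627 ± 0.0108% and ADAMTSL genes 0.0732 ± 0.0175% (SD, n = 4). All 51 members together took 0.525 ± 0.0456%, a narrower relative spread than that of the TIMP or the ADAMTS share. These intervals cover counting error only, since amplified reads without molecular identifiers are not independent molecules.

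**Figure D1:**
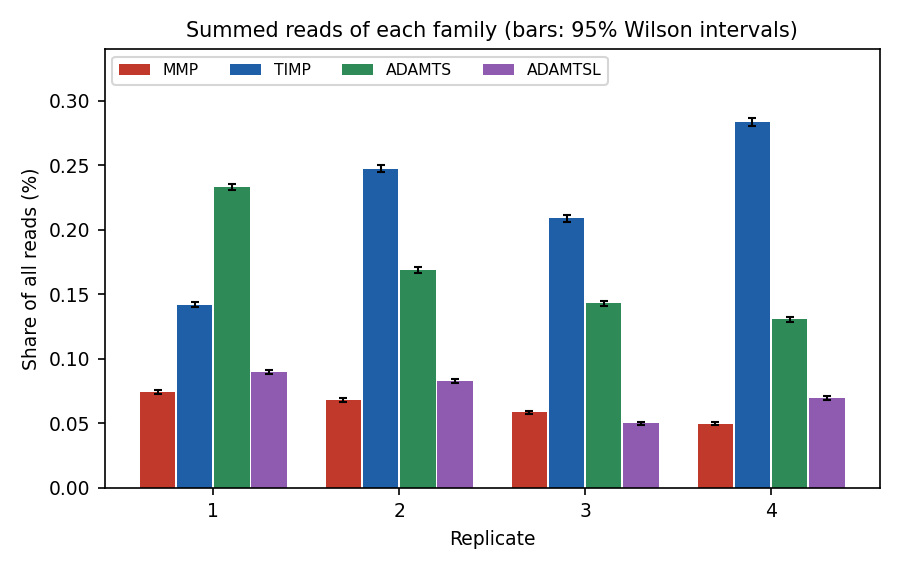
Share of all reads (%) taken by the MMP, TIMP, ADAMTS and ADAMTSL genes in each of the 4 replicates, with 95% Wilson intervals and no correction for GC content. The TIMP bar is lowest (0.142%) and the ADAMTS bar highest (0.233%) in replicate 1, and the TIMP bar is the tallest in replicates 2, 3 and 4.

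CPM values favour long transcripts, so genes were compared with each other as CPM per kb of exon. On that scale the TIMP genes summed to 386 ± 60.2 and the MMP genes to 124 ± 19.5 CPM per kb (SD, n = 4). The ratio of the TIMP to the MMP sum was 2.26, 3.17, 2.86 and 4.66 in replicates 1 to 4. It exceeded 1 in every library and was lowest in replicate 1, with no correction for GC content. ADAMTS genes summed to 264 ± 78.7 and ADAMTSL genes to 81.0 ± 15.5 CPM per kb.

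By CPM, Timp3 was the most abundant member in every library. Its product binds to the matrix and inhibits ADAMTS4 and ADAMTS5 as well as MMPs. Timp3 (ENSMUSG00000020044, chromosome 10, 86300372 to 86349506, GENCODE M21) had 1210, 2232, 1863 and 2581 CPM in replicates 1 to 4, a mean of 1971 ± 586 CPM (SD, n = 4). It was lowest in replicate 1 and ranked 40th of all genes of the table by mean CPM. Timp3 made up 85.2 to 91.0% of the TIMP reads of a library. Of all member reads it made up 22.4% in replicate 1 and 39.3 to 48.3% in the others.

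Timp2 and Timp1 differed in opposite ways in replicate 1. The product of Timp2 inhibits MMPs and also joins precursor MMP2 to MMP14 at the cell surface. Timp2 (chromosome 11, 118301069 to 118355740) had 53.9, 152, 152 and 156 CPM in replicates 1 to 4 (129 ± 49.9 CPM). Replicates 2, 3 and 4 lay close together, and replicate 1 lay far below them. Timp1 (chromosome X, 20870166 to 20874735), which encodes a secreted inhibitor of most soluble MMPs, had 149, 78.0, 68.5 and 93.7 CPM (97.2 ± 35.9 CPM), highest in replicate 1. Timp4 was low, with 7.90, 13.0, 4.90 and 5.18 CPM (7.75 ± 3.76 CPM).

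Per kb of exon the inhibitors ran from Timp3 at 242 ± 72.0 over Timp1 at 109 ± 40.4 and Timp2 at 33.0 ± 12.8 to Timp4 at 1.31 ± 0.638 CPM per kb. Timp1, with an exon length of 888 bases, thus stood above Timp2 per kb and below it in CPM. The order of Timp3 and Timp1 turned in replicate 1, with 149 against 167 CPM per kb. That turn depends on the length used. The exons of Timp3 sum to 8144 bases and its longest transcript has 4722, while the longest transcript of Timp1 has 883.

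Timp1, Timp3 and Timp4 lie inside the synapsin genes Syn1, Syn3 and Syn2, on the opposite strand. The strand setting of the counting is not given in the sources used here, so reads from overlapping exons cannot be assigned. In all, 13 members share exon bases with another gene, 6 of them with a mean of 10 CPM or more, and their counts are uncertain to that extent. Timp3 shares 1733 exon bases with Syn3, which had 1.73 ± 0.623 CPM, far below Timp3. Timp4 shares 90 exon bases with Syn2, which at 60.6 ± 22.6 CPM exceeded Timp4, so the low Timp4 level is uncertain. Timp1 and Syn1 (3.04 ± 1.02 CPM) share no exon base.

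**Figure D2:**
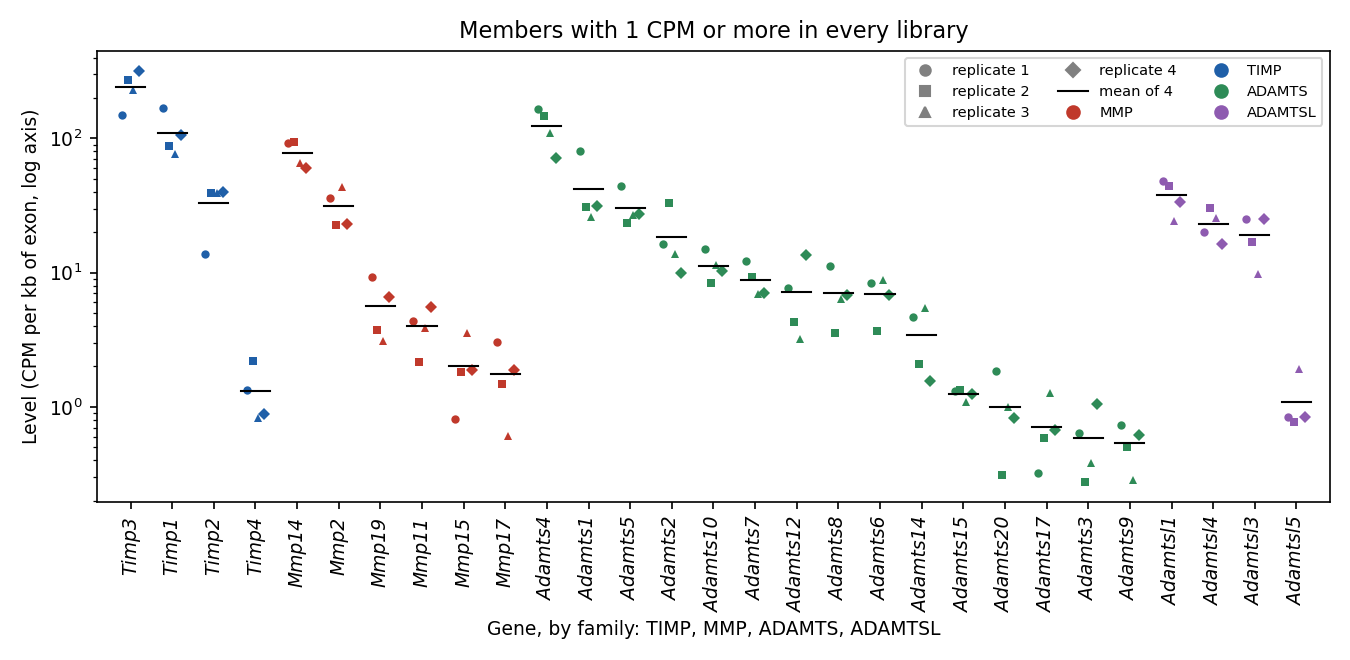
Level of the 29 members with at least 1 CPM in every library, in CPM per kb of exon on a log axis, with 1 point per replicate and the mean of the 4 as a line. Timp3 (242 CPM per kb) leads the inhibitors, Mmp14 (78.2) the MMPs, Adamts4 (124) the ADAMTS proteases and Adamtsl1 (37.6) the ADAMTSL genes.

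Among the MMP genes, Mmp14 and Mmp2 stood above all others. MMP14 is anchored in the cell membrane, cuts fibrillar collagen and activates MMP2, a gelatinase that cuts collagen IV of the basal lamina. Mmp14 (ENSMUSG00000000957, chromosome 14, 54431612 to 54445364) had 551, 560, 393 and 359 CPM in replicates 1 to 4 (466 ± 105 CPM). It was higher in replicates 1 and 2 than in 3 and 4. Mmp2 (ENSMUSG00000031740, chromosome 8, 92827291 to 92853420) had 121, 76.8, 146 and 78.0 CPM (105 ± 33.99 CPM), highest in replicate 3. The fibro-adipogenic markers (7 of 9 at 1 CPM or more throughout) summed to 6151, 8494, 9032 and 7208 CPM in replicates 1 to 4. The tendon markers (4 of 7, with Kera at 0) summed to 11.1, 30.4, 261 and 22.6 CPM. Both sums were also highest in replicate 3, but they were lowest in replicate 1, whereas Mmp2 was lowest in replicate 2. The part of these markers in the Mmp2 level was not tested.

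The other gelatinase was close to absent. Mmp9, the inducible gelatinase of leukocytes and activated tissue, had 1, 3, 1 and 1 reads in replicates 1 to 4, at most 0.226 CPM. A library without any read of a gene still allows 3 counts, an upper limit of 0.226 to 0.239 CPM. Mmp9 had reads in every library, but none of its values exceeded that limit, so its level is poorly determined.

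Of the other membrane-type MMPs, Mmp17 and Mmp15 were low and uneven. Mmp17, whose product is held by a lipid anchor, had 20.1, 9.85, 3.98 and 12.4 CPM (11.6 ± 6.68 CPM), with replicate 1 highest and replicate 3 lowest. Mmp15, a transmembrane enzyme, had 4.38, 9.85, 19.1 and 10.2 CPM (10.9 ± 6.11 CPM), with those 2 libraries in the reverse order. Mmp25 had 2.58 CPM in replicate 1 and at most 0.536 CPM elsewhere. Mmp16 and Mmp24 had 13 reads and 1 read over all 4 libraries.

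Mmp19 and Mmp11 were the remaining secreted MMPs with reads throughout. Mmp19 had 32.8, 13.2, 10.9 and 23.1 CPM (19.995 ± 10.1 CPM), and Mmp11, a stromelysin that furin activates inside the cell, had 12.2, 5.94, 10.8 and 15.3 CPM (11.1 ± 3.90 CPM). Mmp19 shares 789 exon bases with Tmem198b (17.2 ± 5.29 CPM) and Mmp11 shares 155 with Chchd10 (18.7 ± 9.66 CPM), both on the opposite strand. Mmp23, Mmp28 and Mmp21 had 24, 17 and 8 reads in total.

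A run of MMP genes on chromosome 9 was silent at this depth. Between 7272514 and 7699585, a stretch of 427 kb, lie 10 MMP genes: the collagenase genes Mmp1a, Mmp1b, Mmp8 and Mmp13, the stromelysin genes Mmp3 and Mmp10, the matrilysin gene Mmp7, the macrophage elastase gene Mmp12, the enamelysin gene Mmp20, and Mmp27. No read of 8 of these was counted, and the same limit of 0.226 to 0.239 CPM applies to each. Mmp13 had 1 read, and Mmp27 had 13, all in replicate 2. The only members outside this stretch without a read were Adamts13, whose product cuts von Willebrand factor, and Adamts19.

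The sequences just upstream of these silent genes are shown because most carry a motif found before none of the other members searched. AP-1, a dimer of Fos and Jun proteins, is known to drive several of these MMP genes through a site close to their start. The letters TGANTCA of its site, which read the same on both strands, were searched in the 250 bases before each RefSeq start (build GRCm38.p6). A match was present in 6.75% of all 32851 such windows. It was present at 8 of the 10 genes of the chromosome 9 stretch, all but Mmp8 and Mmp27, and at 0 of the 26 other members that have a window. The remaining 15 members, among them Mmp2, Mmp9, Mmp19, Adamts4 and Adamts5, have no entry among those RefSeq starts and were not searched. Mmp12 and Mmp7 have more than 1 start there and a match at 1 of them.

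Below are the 120 bases before the start of Mmp13 (chr9:7272394-7272513), Mmp3 (chr9:7445702-7445821), Mmp1a (chr9:7464021-7464140), Mmp10 (chr9:7502222-7502341) and Mmp7 (chr9:7691970-7692089), all on the plus strand, 5′ to 3′. Capitals mark the match to TGANTCA.
Mmp13: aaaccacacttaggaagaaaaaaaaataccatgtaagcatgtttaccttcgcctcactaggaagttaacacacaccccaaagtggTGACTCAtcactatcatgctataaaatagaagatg
Mmp3: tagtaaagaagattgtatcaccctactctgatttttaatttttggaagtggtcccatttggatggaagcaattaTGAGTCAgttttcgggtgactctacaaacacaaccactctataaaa
Mmp1a: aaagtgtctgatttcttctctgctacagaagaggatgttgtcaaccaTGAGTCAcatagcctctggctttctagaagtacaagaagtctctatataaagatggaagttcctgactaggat
Mmp10: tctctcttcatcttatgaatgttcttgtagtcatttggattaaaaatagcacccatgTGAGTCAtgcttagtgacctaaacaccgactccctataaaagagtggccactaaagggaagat
Mmp7: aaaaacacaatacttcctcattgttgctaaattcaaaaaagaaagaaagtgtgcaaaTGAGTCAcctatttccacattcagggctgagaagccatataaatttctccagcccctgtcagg

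The first base of the match lies 35, 46, 73, 63 and 63 bases before the start in Mmp13, Mmp3, Mmp1a, Mmp10 and Mmp7. Together, the 8 genes with a match had 1 read in the 4 libraries. Of 5 AP-1 subunit genes in the same libraries, Fos had 3618 to 7494 CPM, Jun 2980 to 4839 CPM, Junb 2960 to 4230 CPM, Fosb 96.4 to 203 CPM and Jund 18.0 to 34.1 CPM. All 5 belong to a list of 16 genes known to rise when cells are dissociated from tissue, which summed to 33066 to 56698 CPM. Transcript levels say nothing of the amount of active protein, and a match to these letters is a description of the sequence, not a bound site.

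For contrast, the 120 bases before the starts of a pair of abundant members, Mmp14 (chr14:54431478-54431597, plus strand) and Adamts1 (chr16:85803114-85803233, minus strand), hold no such match and so no capitals.
Mmp14: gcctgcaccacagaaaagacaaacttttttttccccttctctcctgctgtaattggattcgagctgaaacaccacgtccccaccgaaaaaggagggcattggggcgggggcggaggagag
Adamts1: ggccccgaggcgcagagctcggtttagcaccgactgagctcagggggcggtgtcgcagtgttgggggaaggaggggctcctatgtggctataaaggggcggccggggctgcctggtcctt

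Sites of RBPJ, the DNA-binding partner of Notch intracellular domains, were searched as TGGGAA on both strands in the same windows. A match was present in 21.6% of all windows and in 20.5% of the 39 member windows. Timp1 and Adamtsl3 were among the genes with one, and Timp2, Timp3, Mmp14 and Adamts1 were not. The GC box GGGCGG, on both strands, was present in 51.3% of member windows and 32.7% of all. The 3 motifs were counted independently of each other, and no match says only that the letters are not in the window.

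The ADAMTS family was led by proteases of the hyalectan group, which cut versican and related proteoglycans. All 7 genes of that group (Adamts1, Adamts4, Adamts5, Adamts8, Adamts9, Adamts15 and Adamts20) had at least 1 CPM in every library. Adamts4 (ENSMUSG00000006403, chromosome 1, 171250421 to 171260637) had 801, 701, 531 and 343 CPM in replicates 1 to 4 (594 ± 201 CPM). It was the second most abundant member by mean CPM, with its lowest value in replicate 4.

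Adamts5 and Adamts1 are neighbours on chromosome 16, 53.1 kb apart, with no other row of the table between them. ADAMTS5 is known in the mouse for clearing versican around fusing myoblasts, and ADAMTS1 has been described in mouse muscle as a signal that activates satellite cells by acting on Notch1. Adamts5 (ENSMUSG00000022894, 85856173 to 85901828) had 477, 255, 290 and 293 CPM (329 ± 101 CPM). Adamts1 (ENSMUSG00000022893, 85793827 to 85803113) had 425, 164, 139 and 168 CPM (224 ± 135 CPM). Both were highest in replicate 1, with the other 3 libraries close together. Without replicate 1 the mean of Adamts1 was 157 CPM and that of Adamts5 279 CPM.

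The lower genes of the group differed in how steady they were. Adamts8 had 51.8, 16.3, 29.5 and 31.6 CPM (32.3 ± 14.6 CPM). Adamts15 had 13.7, 13.8, 11.3 and 12.9 CPM (12.9 ± 1.13 CPM), and was the steadiest of the members with 10 CPM or more. Adamts20 ranged from 2.78 to 16.5 CPM and Adamts9 from 4.29 to 11.0 CPM.

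Of the procollagen N-proteinases, which trim the ends of fibrillar procollagens, Adamts2 was the main gene. It had 154, 311, 128 and 93.4 CPM (171 ± 96.0 CPM), highest in replicate 2. Of its substrate genes, Col1a1 was highest in replicate 2 (966 CPM), Col1a2 in replicate 1 (233 CPM) and Col3a1 in replicate 3 (5633 CPM). Adamts14 had 24.2, 10.8, 28.4 and 8.13 CPM (17.9 ± 9.95 CPM), higher in replicates 1 and 3 than in 2 and 4. Adamts3 was low in all libraries, at 3.19 ± 1.89 CPM.

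Adamts10 and Adamts6, related proteases tied to fibrillin microfibrils, were both present. Adamts10 had 124, 68.5, 94.8 and 84.3 CPM (92.9 ± 23.4 CPM) and Adamts6 had 65.5, 28.5, 68.7 and 52.8 CPM (53.9 ± 18.3 CPM), each lowest in replicate 2. Adamts17 of the same group had 2.502 to 9.80 CPM. Adamts7 and Adamts12, which cut cartilage oligomeric matrix protein, had means of 55.6 ± 15.8 and 78.3 ± 51.0 CPM. Adamts12 had 83.5, 46.5, 34.9 and 148 CPM, with the largest spread among members of 10 CPM or more. Adamts16 had reads in replicates 1 and 3 only, at 1.41 and 5.43 CPM, and Adamts18 had 1 read in all.

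Among the ADAMTSL genes, Adamtsl1 stood at 615, 569, 309 and 429 CPM (481 ± 139 CPM), the third highest mean of all members in CPM. Per kb it was 37.6 ± 10.9, since its exons sum to 12767 bases. Adamtsl3 had 195, 131, 75.3 and 194 CPM (149 ± 57.5 CPM). Both were lowest in replicate 3. Adamtsl4, whose product binds fibrillin microfibrils, had 83.7, 127, 107 and 69.0 CPM (96.6 ± 25.5 CPM), highest in replicate 2. Adamtsl5 and Adamtsl2 were at 5.13 ± 2.55 and 0.681 ± 0.508 CPM.

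Ranked by CPM per kb of exon, the 23 members of 10 CPM or more formed a continuous series. The first places were held by Timp3 (242 ± 72.0), Adamts4 (124 ± 41.8), Timp1 (109 ± 40.4), Mmp14 (78.2 ± 17.6), Adamts1 (42.2 ± 25.4) and Adamtsl1 (37.6 ± 10.9 CPM per kb). In all 22 pairs of neighbours in this order the ranges over the libraries overlapped. In 1 of them, Mmp14 and Adamts1, the first gene was higher in all 4 libraries. Timp3 and Timp2, far apart in the order, had ranges that did not overlap. The order and the overlaps rest on exon length, and the ranking was not repeated with the longest transcript. That transcript has 4722 bases for Timp3 (exons 8144), 3238 for Mmp14 (exons 5960) and 4389 for Adamts4 (exons 4810). By that length Timp3 and Mmp14 stand higher against Adamts4.

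The same ordering was examined for 14 biochemically related pairs, as the difference of log2(CPM per kb + 0.1) within each library. With 4 libraries the exact two-sided sign-flip permutation test cannot give a p below 0.125, so none of the differences can pass 0.05. Of the 14 pairs, 12 had the same sign in 4 of 4 libraries (exact p = 0.125 each, 0.146 after Benjamini-Hochberg adjustment over the pairs). Timp3 exceeded Timp2 by 2.94 ± 0.37 and Timp4 by 7.47 ± 0.80 (SD, n = 4). Timp3 exceeded Adamts1 by 2.62 ± 1.16, with 0.89 in replicate 1 and 3.13 to 3.32 in the others.

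Mmp14 lay above Mmp2 by 1.35 ± 0.59 and above Mmp15 by 5.34 ± 1.06. With the longest transcript as the length, the difference between Mmp14 and Mmp2 was 2.09. Mmp2 exceeded Mmp9 by 7.84 ± 0.61, and Timp1 exceeded Mmp9 by 9.64 ± 0.59. As Mmp9 had 1 to 3 reads per library, the size of these last 2 differences depends on the pseudocount, and the first was 5.85 with 0.5 and 9.23 with 0.02 CPM per kb.

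Inhibitor and protease were not ordered the same way in every pair. Timp2 minus Mmp14 was -1.33 ± 0.98, negative in 4 of 4 libraries, and -0.87 without replicate 1. With the longest transcript as the length it was -2.14. Timp2 minus Mmp2 was 0.01 ± 1.02 (exact permutation p = 1, n = 4), with -1.37, 0.77, -0.15 and 0.79 in replicates 1 to 4. The sign of that difference was split evenly between the libraries. Timp2 minus Timp1 was -1.78 ± 1.22, with -3.59 in replicate 1 and -1.39 to -0.98 in the others, and -1.18 without replicate 1.

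Among ADAMTS genes, Adamts5 minus Adamts4 was -1.99 ± 0.51 and Adamts2 minus Adamts3 was 4.73 ± 1.37, each with 1 sign in all 4 libraries. Without a length correction the first of these was -0.83. Adamts10 minus Adamts6 was 0.74 ± 0.34, and 1.72 with the longest transcript as the length. Adamts1 minus Adamts5 was 0.36 ± 0.38 (exact permutation p = 0.25, adjusted 0.269, n = 4), positive in 3 of 4 libraries, and 0.19 without replicate 1. Without a length correction this difference was -0.67 and Timp2 minus Timp1 was 0.35, so the order of each pair depends on the correction for length.

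**Figure D3:**
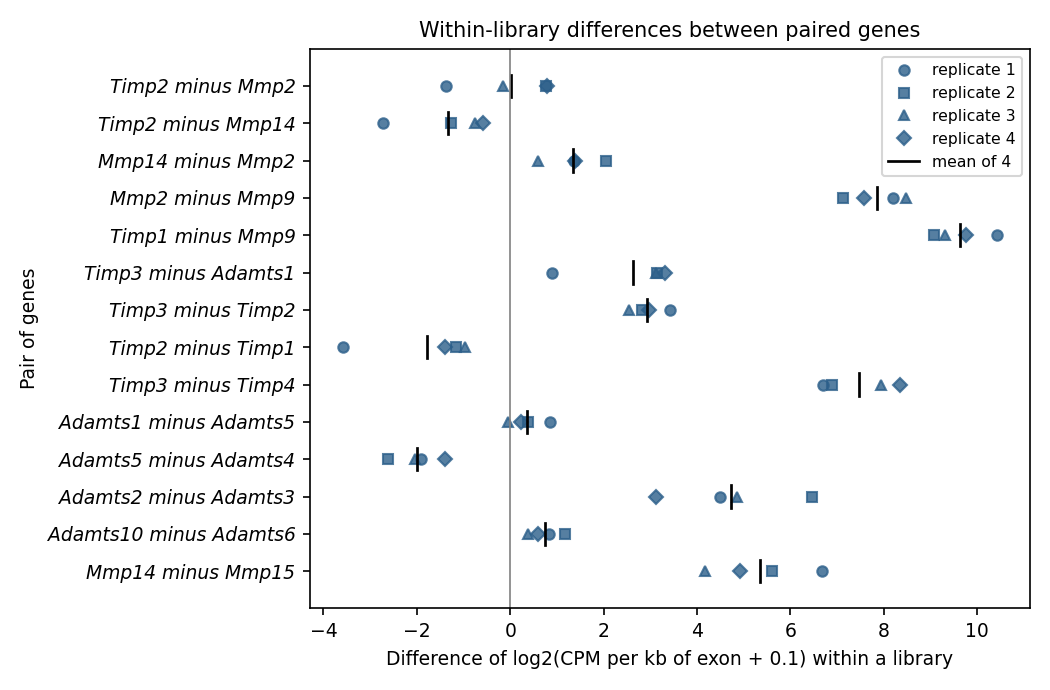
Within-library difference of log2(CPM per kb of exon + 0.1) for the 14 pairs, the first gene named minus the second, with 1 point per replicate and the mean of the 4 as a line. Points of Timp2 minus Mmp2 (mean 0.01) lie on both sides of 0, and replicate 1 lies apart for Timp3 minus Adamts1 (0.89) and Timp2 minus Timp1 (-3.59).

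Spread between libraries was moderate for these genes. The 23 members of 10 CPM or more had a median SD of log2(CPM + 1) of 0.54, between 0.12 for Adamts15 and 0.91 for Adamts12, against a median of 0.62 for the 9202 genes of the table at that level. None of the 23 reached an SD of 1, the limit for a variable gene, which 2.08% of those 9202 genes reached. Adamts12 passed it without replicate 1, Adamts12 and Mmp17 without replicate 2, and Mmp17 without replicate 4. An SD over 3 libraries is less certain than over 4.

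More of these genes were at their highest in replicate 1 than in any other library, an order that did not hold after a correction for GC content. Of the 23 members, 11 were highest there (47.8%, against 26.4% of genes at that level), among them Adamts1, Adamts4, Adamts5, Adamts7, Adamts8, Adamts10, Timp1, Mmp17 and Mmp19. Timp3, Timp2 and Mmp15 were the 3 at their lowest there (13.0%, against 28.2%). Replicate 3 was lowest for 9 members (39.1%, against 18.4%), including Adamts1, Adamtsl1, Adamtsl3, Adamts12, Timp1 and Mmp17. Highest in replicate 4 were Timp3, Timp2, Adamts12 and Mmp11 (17.4%, against 30.4%). Replicate 4 was lowest for 5 members (21.7%, against 31.3%) and replicate 2 for 6 (26.1%, against 22.1%), while replicates 2 and 3 were each highest for 4 (17.4%, against 19.5% and 23.7%). These counts describe 4 libraries of the same group and carry no test.

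**Figure D4:**
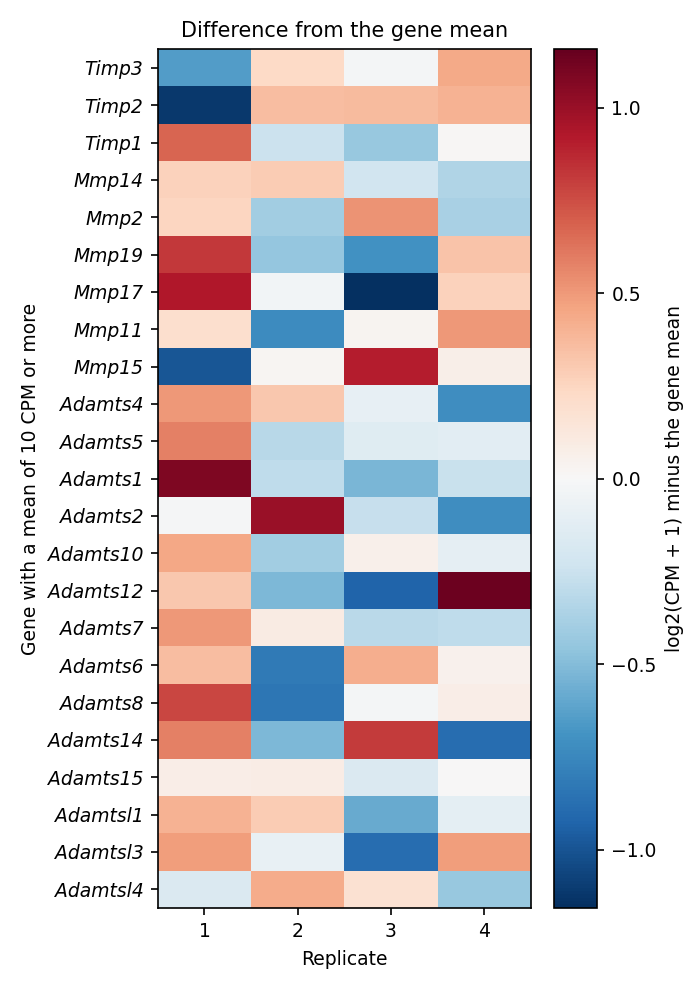
Difference of log2(CPM + 1) from the gene mean (colour scale) for the 23 members with a mean of 10 CPM or more (rows) in each replicate (columns), with no correction for GC content. Replicate 1 is high for Adamts1 and most other ADAMTS genes and low for Timp2, Timp3 and Mmp15, and Adamts12 is highest in replicate 4.

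Adamts1 in replicate 1 exceeded the mean of the other 3 libraries by 1.44 (log2 of CPM + 1), where those 3 had an SD of 0.15. Timp2 there lay below the other 3, by -1.49, with an SD of 0.02 among them. Library composition moved as well: the summed level of 10 adult sarcomere genes was 1348 CPM in replicate 1, 2664 in replicate 2, 2545 in replicate 3 and 1405 in replicate 4, and the mural sum given above was highest in replicate 1. That sum was mostly Acta2 there (1143 CPM), while Abcc9 and Kcnj8 were lowest in replicate 1. Their part in these differences was not tested.

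The departure of a library from the gene mean also followed transcript GC content. Across 9195 genes, which are not independent, Spearman's coefficient was 0.435 in replicate 1, 0.219 in replicate 2, 0.0061 in replicate 3 and -0.555 in replicate 4. The members of 10 CPM or more had a GC content of 43.0 to 60.1%, with a median of 54.3% against 49.2% over all genes of that level. After the median departure of genes of like GC content was taken away, the value of replicate 1 was 1.33 for Adamts1 and -1.90 for Timp2. The Timp2 values of replicates 2, 3 and 4, each against the mean of the other libraries, were then 0.376, 0.399 and 1.13. Before the correction they were 0.476, 0.485 and 0.532, so these libraries lay less close together after it. For Adamts12 in replicate 4 the value was 1.36, against 1.51 before. In replicate 1 it was 0.291 for Adamts4, against 0.667 before, and -0.725 for Timp3, against -0.866 before. Of the 23 members, 8 were then highest in replicate 1 (34.8%, against 25.7% of genes at that level) and 9 in replicate 4 (39.1%, against 26.5%). Adamts8, Adamts10, Adamtsl1 and Mmp17 turned from replicate 1 to replicate 4. Replicates 2 and 3 were highest for 3 each (13.0%, against 22.7% and 25.1%). Replicate 3 was then lowest for 10 members (43.5%, against 24.8%), replicate 2 for 6 (26.1%, against 24.2%), replicate 1 for 4 (17.4%, against 26.1%) and replicate 4 for 3 (13.0%, against 24.9%).

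Beyond these families, the genes that activate or restrain matrix proteases were led by the plasminogen system. Of 20 such genes, 14 had at least 1 CPM in every library, where 53.6% of all genes did, and 2, A2m and Spock1, had no read. Plat, the tissue plasminogen activator, had 3204, 3113, 2142 and 1853 CPM (2578 ± 682 CPM), with a mean above that of every member. Plau, the urokinase-type activator, was at 4.34 ± 2.48 CPM, and Plg, the gene of plasminogen itself, had 1 read in all. Serpine2, an inhibitor of plasminogen activators, was at 532 ± 151 CPM and was lowest in replicate 1, as Timp3 and Timp2 were.

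Bsg, a membrane protein known to induce MMPs, stood at 697 ± 400 CPM, with 1295 CPM in replicate 2. Lrp1, an endocytic receptor that clears protease and inhibitor complexes, was at 104 ± 22.9 CPM and Thsd4, also called Adamtsl6, at 59.2 ± 10.4 CPM. Furin, the convertase that activates membrane-type MMPs, had 38.3 ± 4.77 CPM, and Reck, a membrane-bound MMP inhibitor, 4.38 ± 1.42 CPM.

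Of 14 substrate genes listed, 10 had at least 1 CPM in every library, where 53.6% of all genes did, and 9 had a mean of 10 CPM or more. Col3a1 and Fn1 led with 4599 ± 992 and 1874 ± 753 CPM, followed by Col1a1 (663 ± 238), Fbn1 (510 ± 132), Vcan (280 ± 52.3) and Ltbp1 (257 ± 120 CPM). Of the hyalectans, which the ADAMTS proteases of the first group cut, versican (Vcan) had 272, 306, 210 and 331 CPM. Aggrecan (Acan) and brevican (Bcan) had 1 read each, and Ncan had 0.0765 to 10.9 CPM, with the highest value in replicate 2.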

How the data were processed

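RNA of re-isolated donor-derived satellite cells was sequenced in 4 libraries. Per the labels' protocols, RNA was isolated with a lysis buffer and beads, copied and amplified by a low-input cDNA kit, and made into libraries with Nextera XT. The deposited values are log2 of CPM plus 1 offset that is the same in all libraries, as the values show. Trimmomatic 0.33, FastQC, edgeR, featureCounts and the build mm10 are listed in the submitters' processing notes. The aligner, annotation release, strand setting and handling of multiply aligned reads are not given there.

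Values were taken off the log scale and the offset, 0.0548 CPM, was subtracted. All values (100%) were then whole multiples of 1 read within 1e-06 reads, so reads and CPM were recovered, and 1 read was worth 0.0752 to 0.0797 CPM. With 1 group there was nothing to fit a model to. The chi-square per degree of freedom between libraries was 113 to 231, so no 2 libraries were alike within sampling noise. All 51 member identifiers matched GENCODE M21 (21186 of 21264 over the table), which gave coordinates, union exon length and GC content of the longest transcript. CPM per kb assumes even coverage along transcripts, which was not tested. Promoter sequences are from RefSeq (GRCm38.p6), with 36 members matched.

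Within-library differences used a pseudocount of 0.1 CPM per kb and the exact sign-flip permutation test, two-sided, with its 16 assignments. A variable gene had a mean of at least 10 CPM and an SD of log2(CPM + 1) of at least 1. Read recovery and that rule were tested on simulated reads. Members, gene lists and pairs were chosen with earlier results of these data known. Named genes are members of 10 CPM or more, the 3 most abundant of each family, both genes of each pair, members without reads, and the 6 highest of each pathway list, apart from items that are not reported here. Other genes named were chosen after their values were seen. Scaling alternatives were computed directly from the recovered reads, as trimmed-mean and median-of-ratios factors. Python 3.11.15, numpy 2.4.6, pandas 2.3.3 and scipy 1.17.1 were used.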

Additional observations from a re-analysis of the deposited data

Results flagged for a closer look

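The levels of the named members, the 4 family shares and the 14 pair differences were searched for a library whose gap to the nearest other, over the whole range, exceeds Dixon's 95% limit for 4 samples. Of 44 values 6 passed, and chance alone flags about 1 group in 20. Over all genes of 10 CPM or more, 5.92% passed.

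Of the 6, 5 concern replicate 1. Adamts1 was highest there at 425 CPM, and Adamts5 at 477 CPM, the latter only just past the limit. Timp2 was lowest there at 53.9 CPM. The differences Timp3 minus Adamts1 (0.889) and Timp2 minus Timp1 (-3.59) were lowest there too, and they contain the same genes. Mmp9 was highest in replicate 2 at 0.226 CPM, which is 3 reads against 1 in each other library. The sarcomere and mural marker sums of each library are given above, and their part was not tested.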

How the results depend on the processing

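No comparison between groups was possible because the libraries form 1 group. Trimmed-mean and median-of-ratios scaling shifted no library by more than 0.0485 on the log2 scale. The levels of the 23 members of 10 CPM or more and of Timp4, Mmp9 and Adamts3 moved by less than their SD under both scalings. Leaving out 1 of 4 libraries cannot move a mean by as much as the SD, so that comparison could not fail. Without replicate 1 the mean of Adamts1 was 157 instead of 224 CPM, and that of Timp2 153.5 instead of 129 CPM. The count of members at 1 CPM or more in every library, 29, was 28 at a minimum of 2 CPM and 29 under the other alternatives, 29 without any 1 library. The count of variable members, 0, was 1 (Adamts16, 1.71 CPM) at a minimum mean of 1 CPM and with no minimum, and 0 to 2 without 1 library. It was 0 at 5 CPM, with pseudocounts of 0.25 and 5, under both scalings and after the correction for GC content. Over all genes that count was 191, 346 at 5 CPM, 765 at 1 CPM, 796 with no minimum, 301 with a pseudocount of 0.25, 57 with 5, and 431 to 789 without 1 library. Without mitochondrially encoded and ribosomal protein genes each family share moved by less than its SD. Leaving out 1 library could not move a share by that much either. The shares were not recomputed under the scalings or the GC correction. Of 112 alternative values of the 14 pairs, 107 kept their sign. Timp2 minus Mmp2 was -0.0481 with the longest transcript, -0.24 without replicate 2 and -0.25 without replicate 4 (range -0.25 to 0.47), Timp2 minus Timp1 was 0.35 and Adamts1 minus Adamts5 -0.67 with no length correction. Timp2 in replicate 1 against the others was -1.47 with median-of-ratios factors, -1.43 with a pseudocount of 5 and -1.90 after the GC correction. Members highest in replicates 1 to 4 numbered 11, 4, 4 and 4, and 8, 3, 3 and 9 after the GC correction; the cause was not tested. Chosen after the data were seen were the GC correction, the directly computed scalings, the counts by replicate under other settings, and the comparison of replicate 1 with the others. Mmp9 and the genes with few reads are limited by depth.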
